A study of Mus musculus with 18 samples.

Results

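Border-associated macrophage markers were followed across the prefrontal cortex (PFC) and hippocampus (HPC) of wildtype and 5xFAD mice. The 8 genes were Mrc1, Cd163, Lyve1, F13a1, Pf4, Folr2, Cbr2 and Stab1, taken by symbol from a table of 18683 genes, and all 8 were listed. In the hippocampus all 8 had their highest group mean in 5xFAD mice given PBS, and every 5xFAD library after vesicle injections was below every 5xFAD PBS library for each of them, an arrangement that 5.14% of all listed genes had. For Stab1 the nearest libraries of those groups were all but equal, and they overlapped after libraries were rescaled to a common median, which left 7 genes. The 8 were chosen with earlier results of these data known, and most of their pairs varied together within groups. The share of 5.14% is therefore a description beside them, not a test. No single gene passed the test adjusted over all genes in either hippocampal comparison, and in the prefrontal cortex none did either.

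Border-associated macrophages live at the edges of the brain, in the meninges, along blood vessels and in the choroid plexus, and are a separate population from the microglia of the parenchyma. They are known for endocytosis and scavenging: they take up proteins, lipoproteins and debris from blood and cerebrospinal fluid. The genes described here encode scavenger and uptake receptors, a folate receptor, secreted proteins and a metabolic enzyme that microglia carry little of. In tissue homogenates these cells are rare, so their genes are measured against RNA from far more abundant neurons and glia, and fewer such cells cannot be told apart from less RNA per cell.

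RNA was sequenced in bulk from 18 libraries of male mice on the C57BL/6J strain, 3 for each of 6 groups. Wildtype mice received PBS (the saline vehicle), 5xFAD mice received PBS, and further 5xFAD mice received extracellular vesicles (EV) isolated from human breast milk, and both tissues were taken from each arm. All mice, controls included, were injected intravenously 10 times, every 3 days, between 5 and 6 months of age, then went through behavioural tests and were perfused with cold PBS. 5xFAD mice carry human transgenes with familial Alzheimer mutations under the neuronal Thy1 promoter and deposit amyloid from early adulthood. There was no wildtype group given vesicles, so the vesicle comparison exists only within 5xFAD. The labels do not say whether replicates of a group were separate mice, so the p-values measure the spread between these libraries, which may be technical. They also do not say whether the same number in PFC and HPC stands for the same mouse.

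Values are FPKM, fragments scaled by gene length and library size. The whole reads behind them could be recovered, with library totals of 26437869 to 36901754. Thy1, whose promoter drives the transgenes, was higher in 5xFAD PBS than in wildtype libraries in both tissues, by 1.23 on the log2 scale in PFC and 1.40 in HPC. Hippocampal libraries differed strongly in choroid plexus genes: 13 of them summed to 93.3 to 238 FPKM in wildtype, 3077 to 10038 in 5xFAD PBS and 266 to 6630 in 5xFAD EV, against 65.0 to 85.4 in PFC apart from EV replicate 3 at 1061.

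The 8 genes were all weakly expressed, with means over the 18 libraries that only 27.5% to 39.9% of the listed genes fell below. On this per-length scale Pf4 (mean 1.47 FPKM) and Stab1 (1.43 FPKM) were the most abundant, followed by Mrc1 (1.10 FPKM), Cbr2 (1.03 FPKM) and F13a1 (0.726 FPKM). Folr2 (0.476 FPKM), Lyve1 (0.350 FPKM) and Cd163 (0.341 FPKM) were the lowest. Adjacent genes in this order had ranges over the libraries that overlapped widely. Stab1 was read by 220 to 588 fragments a library and Mrc1 by 78 to 359, while Pf4 was read by 7 to 76 and Folr2 by 7 to 62. The 7 reads of Pf4 in wildtype HPC replicate 1 give 0.365 FPKM with an exact 95% counting interval of 0.147 to 0.752. Libraries of one group differed by more than counting error for every gene, with a chi-square per degree of freedom of 3.03 for Folr2 to 18.3 for Stab1.

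RefSeq promoter windows (assembly GRCm38.p6, an older build than the GRCm39 named for the files) were found for 7 of the 8 genes, in 9 windows. The heptamer AGGAAGT, the core letters bound by PU.1 (encoded by Spi1) and other ETS-family factors that myeloid promoters are known for, was searched on both strands in the 250 bases before each start. It occurred in 4 of the 9 windows, 1 each for Mrc1, Pf4, Folr2 and F13a1, and in 7.686% of all 32851 windows. It was chosen after the counts of 11 short motifs had been seen. Among the others, GAGGAAG (10.6% of all windows), CAGGAAG (10.8%) and GGAAGT (19.7%) were also in 4 of the 9 windows each. TGCTGA was in 3 (16.1%), and the longer GAGGAAGT in 1 (2.44%). TATAAA was in none of the 9 windows (12.4% of all windows) and GATAAG in 1 (6.55%). A match is a stretch of letters, not a measured binding site. The stretches of 100 bases below hold the matches, in capitals, shown 5′ to 3′ on the gene's strand. These 4 genes are also those whose 5xFAD PBS hippocampal libraries did not overlap the wildtype ones. That is not a test, because the heptamer was picked after its counts in these windows were seen. Lyve1 had no window, and the other windows of Folr2 and F13a1 held no match. Nothing is drawn from the match about a factor.
Mrc1, chr2:14229164-14229263, plus strand: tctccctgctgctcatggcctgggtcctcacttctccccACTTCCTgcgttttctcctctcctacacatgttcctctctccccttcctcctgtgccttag
Pf4, chr5:90772335-90772434, plus strand: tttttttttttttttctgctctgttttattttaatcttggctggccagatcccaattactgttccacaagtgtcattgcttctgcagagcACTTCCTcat
Folr2, chr7:101857251-101857350, minus strand: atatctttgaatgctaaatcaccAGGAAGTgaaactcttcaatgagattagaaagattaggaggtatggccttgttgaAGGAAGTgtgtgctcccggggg
F13a1, chr13:37049214-37049313, minus strand: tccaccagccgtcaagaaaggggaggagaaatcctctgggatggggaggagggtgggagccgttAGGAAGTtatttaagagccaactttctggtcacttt
The match begins 211 bases before the start in Mrc1, 10 in Pf4 and 36 in F13a1, and Folr2 has 2 on the same strand, at 137 and 82 bases.

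**Figure D1:**
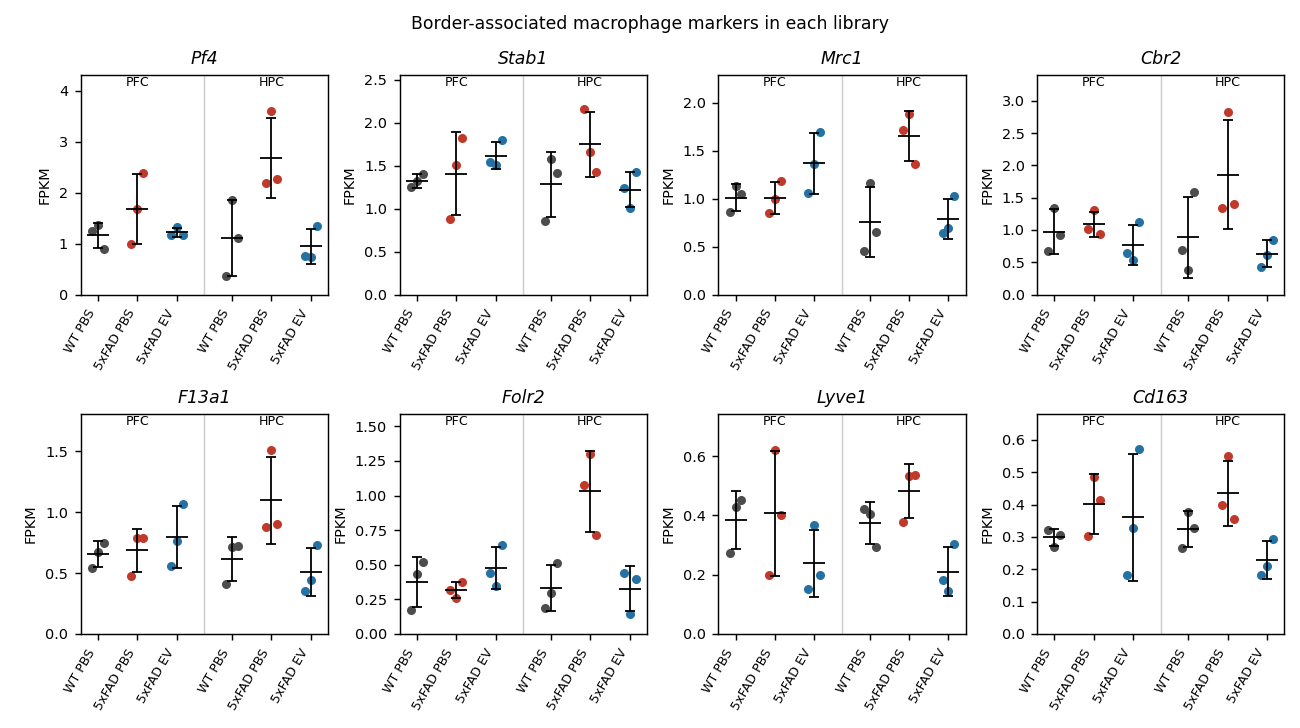
FPKM of the 8 genes in each of the 18 libraries (points) by group, prefrontal cortex (PFC) on the left and hippocampus (HPC) on the right of each panel, with the mean and SD of 3 libraries as bars; axes start at 0 and differ between panels. In HPC the 5xFAD PBS libraries sit above all 5xFAD EV libraries for each of the 8 genes, whereas the PFC groups overlap except for Stab1 in 5xFAD EV against wildtype.

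In the hippocampus, 5xFAD PBS mice had higher group means than wildtype mice for all 8 genes, from 1.29-fold for Lyve1 to 3.12-fold for Folr2. With vesicles the means were lower than in 5xFAD PBS for all 8, from 1.43-fold lower for Stab1 to 3.14-fold lower for Folr2. Both comparisons use the same 3 libraries of 5xFAD PBS, so a high value there enters both with opposite sign. Differences below are log2 fold changes of FPKM + 0.5 with their standard error, tested with limma and Benjamini-Hochberg adjustment over all genes; that scale understates changes of genes as low as these. Each group holds 3 libraries.

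Mrc1 encodes the mannose receptor CD206, an endocytic receptor for glycoproteins and the usual first marker of these cells. Its hippocampal levels were 0.450, 1.16 and 0.656 FPKM in wildtype, 1.72, 1.88 and 1.36 in 5xFAD PBS, and 0.641, 0.693 and 1.02 in 5xFAD EV. The 5xFAD PBS libraries stood above all 6 others, and the wildtype and EV libraries overlapped. The difference was 0.81 ± 0.21 for 5xFAD PBS against wildtype (limma adjusted p = 0.0664) and -0.75 ± 0.21 for EV against PBS (limma adjusted p = 0.867). Mrc1 passed the threshold for genotype only when wildtype replicate 2, the highest wildtype library, was left out (1.03, limma adjusted p = 0.0269). Over all fits that left out 1 library, its genotype difference ran from 0.63 to 1.03 and its limma adjusted p from 0.0269 to 0.204.

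Stab1 encodes stabilin-1, a scavenger receptor for modified lipoproteins and matrix fragments. In hippocampus it read 0.858, 1.58 and 1.42 FPKM in wildtype, 2.16, 1.66 and 1.42 in 5xFAD PBS, and 1.24, 1.01 and 1.42 in 5xFAD EV. Wildtype overlapped both 5xFAD arms, and the lowest PBS and the highest EV library were all but equal. The differences, 0.35 ± 0.19 (limma adjusted p = 0.372) and -0.38 ± 0.19 (limma adjusted p = 0.867), were the smallest of the 6 hippocampal genes that could be tested. After libraries were rescaled to a common median, the PBS and EV groups of Stab1 overlapped.

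Cd163, the receptor for haemoglobin bound to haptoglobin, was below the minimum of 0.5 FPKM in nearly all libraries. Hippocampal values were 0.265, 0.377 and 0.327 FPKM in wildtype, 0.397, 0.550 and 0.356 in 5xFAD PBS, and 0.183, 0.210 and 0.294 in 5xFAD EV. PBS and EV did not overlap; PBS and wildtype did. Fitted without the filter, its differences were 0.18 ± 0.09 (limma adjusted p = 0.404) and -0.36 ± 0.09 (limma adjusted p = 0.858).

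Lyve1 is a hyaluronan receptor that also marks lymphatic endothelium. It measured 0.423, 0.406 and 0.294 FPKM in wildtype hippocampus, 0.378, 0.534 and 0.536 in 5xFAD PBS, and 0.180, 0.146 and 0.305 in 5xFAD EV. The EV libraries were below all PBS libraries, and the lowest PBS library lay within the wildtype range. Without the filter the differences were 0.17 ± 0.11 (limma adjusted p = 0.509) and -0.47 ± 0.11 (limma adjusted p = 0.858).

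Folr2 encodes folate receptor beta, the folate receptor of tissue macrophages. It had the widest hippocampal contrast in fold: 0.184, 0.293 and 0.512 FPKM in wildtype, 1.08, 1.30 and 0.715 in 5xFAD PBS, and 0.442, 0.143 and 0.398 in 5xFAD EV. All PBS libraries exceeded all others, while wildtype and EV spanned the same low range. The difference was 0.88 ± 0.22 against wildtype (limma adjusted p = 0.0510) and -0.89 ± 0.22 for EV against PBS (limma adjusted p = 0.867). Folr2 entered the hippocampal test through its PBS libraries and 1 wildtype library, so its passing the filter and its high PBS value are the same fact. The genotype difference crossed the threshold with a pseudocount of 1 (0.61, limma adjusted p = 0.0462). It also did without 5xFAD PBS replicate 3, the lowest of that group (1.04, limma adjusted p = 0.0456). With each library left out in turn, the difference for Folr2 ran from 0.75 to 1.04 and its limma adjusted p from 0.0456 to 0.175. Its relative Folr1, the folate receptor of choroid plexus epithelium, was at 14.0, 50.4 and 15.2 FPKM in the PBS and 33.7, 13.3 and 1.43 FPKM in the EV hippocampal libraries. Only EV replicate 1 had Folr1 within the range of the PBS libraries, and its Folr2 was at 0.442 FPKM. EV replicate 2, with Folr1 just below that range, had Folr2 at 0.143 FPKM. EV replicate 3, with the lowest Folr1 of these, had Folr2 at 0.398 FPKM. The part of choroid plexus in the Folr2 values was not tested.

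F13a1 encodes the A subunit of coagulation factor XIII, a transglutaminase that macrophages and platelets carry. Hippocampal values were 0.409, 0.714 and 0.721 FPKM in wildtype, 0.875, 1.51 and 0.902 in 5xFAD PBS, and 0.349, 0.444 and 0.729 in 5xFAD EV. PBS libraries were again above the other 6, with replicate 2 well above its own group. The differences were 0.51 ± 0.21 (limma adjusted p = 0.220) and -0.66 ± 0.21 (limma adjusted p = 0.867).

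Pf4 encodes platelet factor 4, a heparin-binding chemokine made by megakaryocytes and by these macrophages. It read 0.365, 1.85 and 1.11 FPKM in wildtype hippocampus, 2.18, 3.60 and 2.27 in 5xFAD PBS, and 0.750, 0.737 and 1.35 in 5xFAD EV. The PBS group did not overlap either other group, and wildtype ranged over most of the distance between the lowest and the PBS libraries. Its differences, 1.07 ± 0.34 (limma adjusted p = 0.119) and -1.14 ± 0.34 (limma adjusted p = 0.867), were the largest on the log2 scale. Of the platelet genes, Ppbp was between 0 and 0.413 FPKM and Itga2b between 0.161 and 0.427 FPKM over the 18 libraries. Gp1bb was higher, averaging 1.87 FPKM in wildtype, 1.95 in 5xFAD PBS and 1.79 in 5xFAD EV hippocampus. Itgb3 averaged 0.294, 0.752 and 0.787 FPKM in the same order. The 9 platelet and megakaryocyte markers summed to 2.17 to 2.88 FPKM in wildtype, 2.91 to 4.05 in 5xFAD PBS and 2.67 to 3.64 in 5xFAD EV hippocampus. Their part in the Pf4 values was not tested.

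Cbr2 encodes carbonyl reductase 2, an NADPH-dependent enzyme that reduces carbonyl compounds. Its hippocampal levels were 0.691, 0.382 and 1.58 FPKM in wildtype, 1.34, 2.83 and 1.40 in 5xFAD PBS, and 0.432, 0.610 and 0.852 in 5xFAD EV. Wildtype replicate 3 lay among the PBS libraries, and PBS replicate 2 was far above the other 8. The differences were 0.80 ± 0.33 (limma adjusted p = 0.220) and -1.02 ± 0.33 (limma adjusted p = 0.867).

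Against wildtype hippocampus, 0 of the 6 tested genes were called in 5xFAD PBS mice, where 4.59% of all tested genes were called. Mrc1, F13a1, Pf4 and Folr2 had groups without overlap, 4 of 8, all higher in 5xFAD PBS; 14.8% of all listed genes were higher without overlap. Fitted without a filter on low values so that all 8 could enter, 4 of the 8 were higher at an unadjusted p under 0.05, against 12.1% of all genes, and the median difference of the 8 was 0.66, against 0.02 over all genes. That count was 2 of 8, Folr2 and Mrc1, when either replicate 1 of wildtype or replicate 2 of 5xFAD PBS was dropped, and was 3 or 4 when each of the other libraries was left out. For EV against PBS in 5xFAD hippocampus no gene at all was called by limma (0% of the tested genes), and the same 0 came from voom on the recovered reads. All 8 of the 8 genes were lower in EV without overlap, 7 after median rescaling, whereas 5.14% of all listed genes were lower without overlap. Without the filter 7 of 8 were lower at an unadjusted p under 0.05, against 3.54% of all genes, with a median of -0.70 against -0.01 over all genes. That count was 4 of 8 without EV replicate 1 (Cd163, Folr2, Lyve1 and Mrc1), and was 5 to 7 when each of the other libraries of those groups was left out. Fitted on the recovered reads with voom, without a filter and without the damping of the pseudocount, the 8 differences ran from -0.53 for Stab1 to -1.75 for Folr2, and all had an adjusted p of 0.859. Because the 8 were chosen with earlier results of these data known, the shares of all genes given beside their counts are a description.

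**Figure D2:**
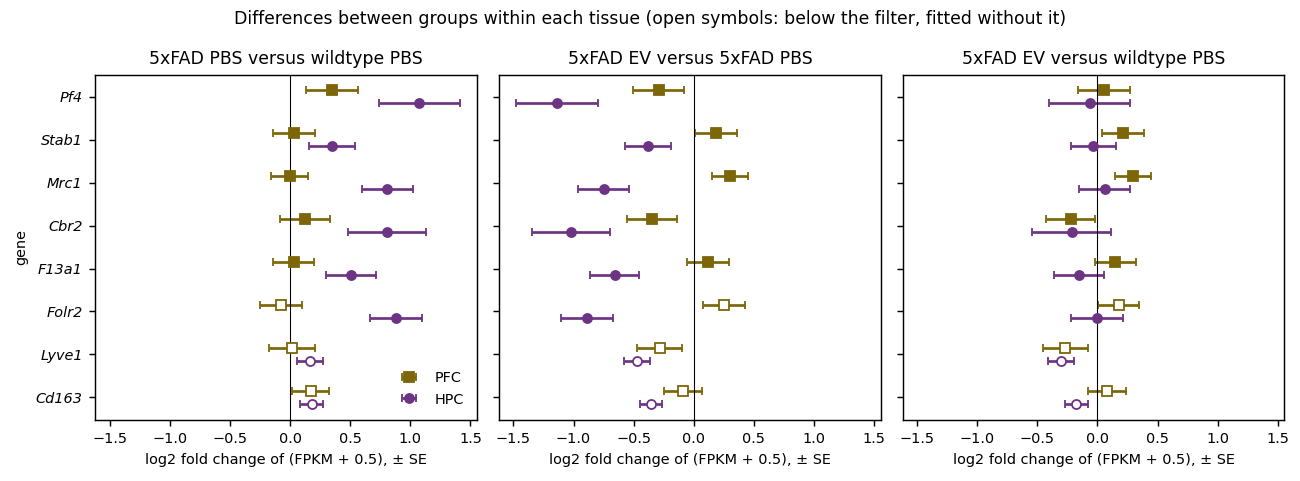
Log2 fold change of FPKM + 0.5 with its standard error for the 8 genes in the 3 comparisons within each tissue, PFC as squares and HPC as circles; open symbols are genes below the filter, fitted without it. HPC points lie right of 0 for 5xFAD PBS against wildtype and left of 0 for EV against PBS for all 8 genes. In EV against wildtype, the HPC points of 7 genes lie left of 0.

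The 5xFAD EV hippocampus was then set against wildtype. None of the 6 tested genes was called (2.1% of all tested genes were), and none of the 8 had groups without overlap, as 16% of all listed genes did in either direction. Fitted without the filter, 7 of the 8 were below wildtype, as were 49.2% of all genes. Their median was -0.11, against 0.002 over all genes. At an unadjusted p under 0.05, 1 of the 8 was lower, against 4.06% of all genes. Mrc1 (0.06 ± 0.21), Folr2 (-0.01 ± 0.22), Stab1 (-0.03 ± 0.19) and Pf4 (-0.06 ± 0.34) were closest to 0, with limma adjusted p of 0.950 to 0.996. Lyve1 was the furthest below wildtype, at -0.30 ± 0.11 without the filter (limma adjusted p = 0.337), with 1 of its 3 EV libraries inside the wildtype range. These errors leave room for differences in either direction, so the values do not show that the EV and wildtype hippocampus were alike.

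In the prefrontal cortex the genes showed no such separation. Mrc1 read 0.855, 1.13 and 1.05 FPKM in wildtype, 0.848, 0.998 and 1.18 in 5xFAD PBS, and 1.06, 1.36 and 1.69 in 5xFAD EV. Folr2 read 0.171, 0.432 and 0.517 FPKM, then 0.317, 0.263 and 0.373, and 0.443, 0.348 and 0.646 in the same order of groups. For both genes the 3 arms overlapped, and the highest library was EV replicate 3, the PFC library with the high choroid plexus sum.

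Stab1 was at 1.25, 1.32 and 1.41 FPKM in wildtype PFC, 0.880, 1.51 and 1.83 in 5xFAD PBS, and 1.54, 1.51 and 1.80 in 5xFAD EV. It was the only one of the 8 whose groups did not overlap in any PFC comparison, being higher in EV than in wildtype (0.21 ± 0.18, limma adjusted p = 0.563); 12.4% of all listed genes were higher without overlap there. Pf4, at 1.26, 1.36 and 0.889 FPKM in wildtype, 0.994, 1.68 and 2.38 in 5xFAD PBS, and 1.17, 1.33 and 1.17 in 5xFAD EV, varied most within the PBS arm.

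F13a1 was at 0.542, 0.674 and 0.750 FPKM in wildtype PFC, 0.479, 0.788 and 0.789 in 5xFAD PBS, and 0.556, 0.760 and 1.07 in 5xFAD EV. Cbr2 was at 0.668, 1.34 and 0.916 FPKM, then 1.02, 1.31 and 0.943, and 0.641, 0.539 and 1.12. Both overlapped between all arms, and PBS replicate 1 was the lowest PFC library of F13a1 as it was of Mrc1 and Stab1.

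Cd163 in PFC measured 0.322, 0.269 and 0.305 FPKM in wildtype, 0.303, 0.487 and 0.414 in 5xFAD PBS, and 0.181, 0.328 and 0.572 in 5xFAD EV. Lyve1 measured 0.273, 0.429 and 0.454 FPKM, then 0.199, 0.622 and 0.403, and 0.151, 0.367 and 0.198. The spread inside the 5xFAD arms was as wide as any distance between arms for these scavenger and hyaluronan receptors.

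Of the 5 genes tested in PFC (Mrc1, F13a1, Pf4, Cbr2 and Stab1), 0 were called for 5xFAD PBS against wildtype, where 1.96% of all tested genes were. For EV against PBS, 0 were called, as was no other gene (0%), and for EV against wildtype 0 were called beside 1.52% of all tested genes. None of the 5 reached an unadjusted p under 0.05 in those comparisons, in which 8.16%, 4.72% and 15% of all tested genes did, and none of the 8 did without the filter. None of the 8 had groups without overlap for 5xFAD PBS against wildtype or EV against PBS, where 12.9% and 9.71% of all listed genes had. The medians of the 8 without the filter were 0.03, 0.02 and 0.12 in those comparisons, against 0.01, 0.01 and 0.03 over all genes.

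Levels in the 2 tissues were compared within each arm over all 18 libraries, where 7 of the 8 genes could be tested (not Cd163). In wildtype mice 0 of 7 were called between HPC and PFC, beside 15.9% of all tested genes, and none had groups without overlap, against 28.2% of all listed genes. In 5xFAD PBS mice Folr2 was called, 1 of 7, beside 25.1% of all tested genes, and was 3.24-fold higher in HPC than in PFC (0.89 ± 0.20, limma adjusted p = 0.00483). The Folr2 call held in each of the 6 fits that left out 1 library. In these 5xFAD PBS mice the 13 choroid plexus genes summed to 3077 to 10038 FPKM in HPC and 68.8 to 73.5 in PFC. The 11 meningeal fibroblast genes summed to 119 to 252 FPKM in HPC and 38.2 to 58.5 in PFC. The part of choroid plexus or meninges in the Folr2 difference was not tested. Mrc1 (0.51 ± 0.19, limma adjusted p = 0.0602), F13a1 (0.42 ± 0.20, limma adjusted p = 0.136) and Cbr2 (0.52 ± 0.29, limma adjusted p = 0.216) were also higher in HPC without overlap, as were 22% of all listed genes. Mrc1 passed the threshold there without 5xFAD PBS HPC replicate 3 (0.61, limma adjusted p = 0.0471). Over all fits that left out 1 library, its difference ran from 0.43 to 0.61 and its limma adjusted p from 0.0471 to 0.199.

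In 5xFAD EV mice all 8 genes had lower means in HPC than in PFC, 0 of 7 were called (16.9% of all tested genes were), and Mrc1 and Stab1 were lower without overlap, as were 13.2% of all listed genes. Mrc1 was 1.74-fold lower (-0.54 ± 0.19, limma adjusted p = 0.0652). It passed without EV PFC replicate 1 (-0.66, limma adjusted p = 0.0449) or without EV HPC replicate 3 (-0.67, limma adjusted p = 0.0381). Over all fits that left out 1 library, its difference ran from -0.67 to -0.41 and its limma adjusted p from 0.0381 to 0.213.

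Whether an effect differed between tissues was tested directly. The genotype effect was larger in HPC than in PFC by 0.96 ± 0.29 for Folr2 (limma adjusted p = 0.561) and 0.81 ± 0.27 for Mrc1 (limma adjusted p = 0.631). The vesicle effect was lower in HPC than in PFC by a difference of -1.14 ± 0.29 for Folr2, -1.05 ± 0.27 for Mrc1 and -0.78 ± 0.28 for F13a1, each with a limma adjusted p of 0.992. No gene of the table was called in either test of the difference (0% in each), although 1 was for the vesicle effect when no filter was used. At an unadjusted p under 0.05, 2 of the 8 had a higher genotype effect and 3 of the 8 a lower vesicle effect in HPC without the filter, each against 4.31% of all genes. A difference between the tissues was therefore not established for any of the 8.

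Other genes of these macrophages were read from a list of 30, of which 18 could be tested in HPC and 16 in PFC. In hippocampus 6 of 18 rose in 5xFAD PBS against wildtype and none fell, where 4.59% of all tested genes were called, with a median of 0.59 against 0.02 over all tested genes; they include Lyz2, the macrophage lysozyme (from 17.6 ± 5.91 to 115 ± 9.96 FPKM, SD, n = 3), Wfdc17, a secreted inhibitor-like protein (1.23 ± 0.221 to 4.49 ± 0.837), and Dab2, an endocytic adaptor (1.81 ± 0.543 to 5.34 ± 1.77). Lyz2 and Wfdc17 are also raised in microglia around plaques. In PFC 4 of 16 rose, Lyz2 and Wfdc17 among them, beside 1.96% of all tested genes called. For EV against PBS none was called in either tissue, with a median of -0.45 in HPC against -0.02 over all tested genes, and Dab2 averaged 2.93 ± 0.931 FPKM in EV hippocampus.

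Receptor partners and relatives of the 8 (haptoglobin and haem handling, hyaluronan synthesis and binding, folate transport, fibrin and transglutaminases, carbonyl reductases) were taken from a list of 30. In 5xFAD PBS hippocampus 3 of 18 tested rose against wildtype, beside 4.59% of all tested genes called: Cd36, a lipid scavenger receptor (0.446 ± 0.0819 to 1.69 ± 0.550 FPKM, SD, n = 3), Cd44, the main hyaluronan receptor (0.941 ± 0.192 to 1.92 ± 0.395), and Hmox1, the haem-degrading enzyme (4.84 ± 0.484 to 7.42 ± 0.842). None was called for EV against PBS, where Cd36 averaged 0.683 ± 0.320 FPKM in EV. In PFC 0 of 16 were called for either of those comparisons, and Mrc2, 1 of 16, rose in EV against wildtype, beside 1.52% of all tested genes called.

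Growth factors and regulators that macrophages depend on included Irf8 and Spi1 (the gene of PU.1) and Csf1r, the receptor for colony-stimulating factor. Of 13 tested, 7 rose in 5xFAD PBS against wildtype in each tissue, and 7 in HPC and 5 in PFC rose in EV against wildtype. Of all tested genes, 4.59% in HPC and 1.96% in PFC were called in the first comparison and 2.1% and 1.52% in the second. Spi1 averaged 3.04 ± 0.578 FPKM in wildtype, 8.11 ± 0.927 in 5xFAD PBS and 6.96 ± 2.33 in 5xFAD EV hippocampus (SD, n = 3), and Csf1r 24.6 ± 1.69, 59.7 ± 5.27 and 58.9 ± 10.6. Both genes are carried by microglia as well, and both rose in EV against wildtype hippocampus. None of the 6 tested border macrophage genes was called there, nor in 5xFAD PBS against wildtype hippocampus. The means of those 6 were lower than those of Spi1 and Csf1r, and a gene not called is not shown to be unchanged. MHC class II genes, which border macrophages, dendritic cells and activated microglia share, rose for 5 of 6 in 5xFAD PBS and 4 of 6 in EV hippocampus against wildtype, beside 4.59% and 2.1% of all tested genes called.

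Summed over the 8 genes, hippocampal libraries held 3.64, 6.76 and 6.62 FPKM in wildtype, 10.1, 13.9 and 8.97 in 5xFAD PBS, and 4.22, 3.99 and 6.37 in 5xFAD EV. The 12 core microglia genes summed to 184 to 212 FPKM in wildtype, 493 to 579 in 5xFAD PBS and 411 to 699 in 5xFAD EV hippocampus. As a share of the microglia sum, the 8 genes amounted to 2.82% ± 0.728 in wildtype, 2.12% ± 0.604 in 5xFAD PBS and 0.948% ± 0.0324 in 5xFAD EV hippocampus (SD, n = 3). The 3 EV libraries, at 0.911% to 0.972%, were below the other 15 libraries of the study. In PFC the share was 3.09% ± 0.151 in wildtype, 1.74% ± 0.420 in 5xFAD PBS and 1.35% to 2.67% in 5xFAD EV.

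**Figure D3:**
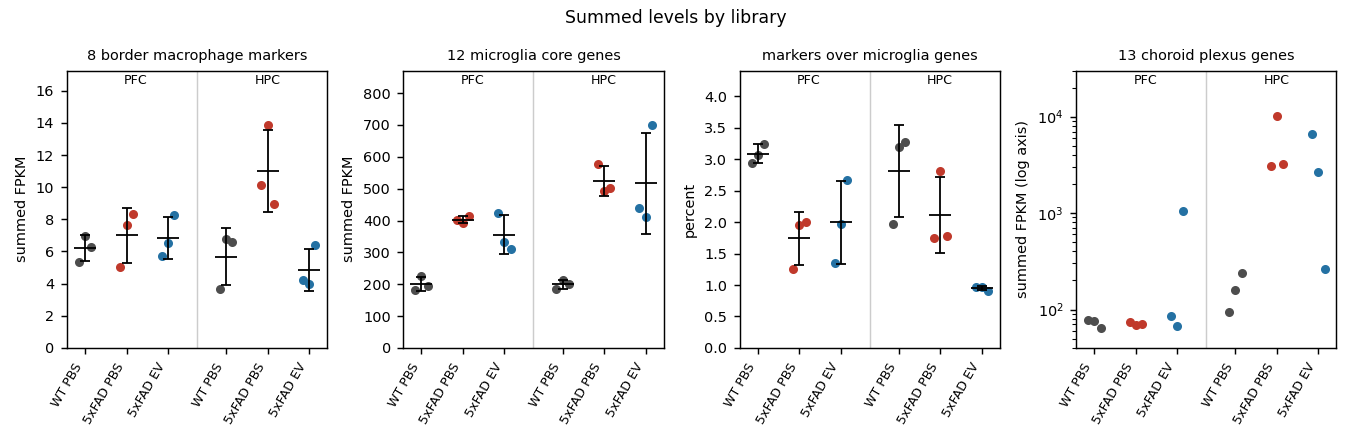
Summed FPKM of the 8 genes, of 12 microglia core genes, the first as a percentage of the second, and summed FPKM of 13 choroid plexus genes (log axis) in each library, with mean and SD of 3 libraries in the first 3 panels. In HPC the 8-gene sum is highest in 5xFAD PBS while the microglia sum is high in both 5xFAD arms, and choroid plexus genes are high in 5xFAD PBS and in EV replicates 1 and 2.

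Choroid plexus and meningeal genes were read in the same hippocampal libraries. The choroid plexus list rose in 5xFAD PBS against wildtype for 9 of its 13 genes, beside 4.59% of all tested genes called, and 11 meningeal fibroblast genes summed to 55.9 to 118 FPKM in wildtype, 119 to 252 in 5xFAD PBS and 70.4 to 134 in 5xFAD EV. PBS replicate 2, with the highest choroid plexus and meningeal sums of the 18 libraries, was the highest library for 5 of the 8 genes. The part of either tissue in the higher values of the 8 genes in 5xFAD PBS was not tested. In the EV arm, replicates 1 and 2, at 6630 and 2667 FPKM of choroid plexus genes, held 4.22 and 3.99 FPKM of the 8 genes. EV replicate 3, at 266 FPKM, held 6.37. The part of choroid plexus in these EV values was not tested. Meningeal genes were lower in EV than in PBS hippocampus by a median of -0.85 with 0 of 10 called, and their part in the lower values of the 8 genes was not tested. The 10 monocyte and neutrophil markers summed to 0.260 to 1.31 FPKM in wildtype, 3.78 to 4.35 in 5xFAD PBS and 1.43 to 3.60 in 5xFAD EV hippocampus, so 5xFAD PBS did not overlap either other group. Of the 3 that could be tested, 2 (S100a8 and Ly6c2) rose in 5xFAD PBS against wildtype and 0 were called for EV against PBS, and their part in the values of the 8 genes was not tested.

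Pairs of the 8 genes were also compared from library to library. After subtracting each group's mean, 27 of the 28 pairs had a Pearson r above 0 over 18 libraries, with a median of 0.47 and a range from -0.01 (Folr2 with Lyve1) to 0.85 (F13a1 with Cd163). Mrc1 went closest with F13a1 (0.79) and Pf4 (0.78), and Cbr2 was the least tied to Mrc1, Stab1, Pf4 and Lyve1 (0.07 to 0.15) but went with F13a1 (0.60) and Folr2 (0.57). These points share library and depth, and are a description. The co-variation was not particular to the 8: the median r of a gene with the meningeal fibroblast genes was 0.63 for F13a1, 0.60 for Folr2, 0.58 for Cbr2, 0.56 for Stab1 and 0.54 for Pf4, against 0.59, 0.48, 0.14, 0.54 and 0.50 in that order with the other tested genes of the 8. For Mrc1 it was 0.50 against 0.58 and for Lyve1 0.11 against 0.28, and over all genes the median r of these 7 was 0.05 to 0.10. By rank over the raw values, which also carry the group differences, EV hippocampus replicates 1 and 2 were each among the 3 lowest of 18 for 6 of the 8 genes and wildtype hippocampus replicate 1 for 5, while 5xFAD PBS hippocampus replicate 2 was among the 3 highest for 7.

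**Figure D4:**
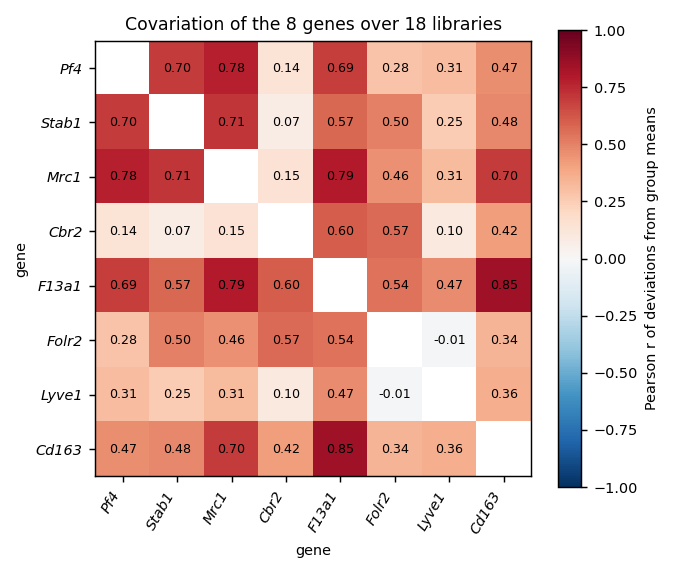
Pearson r between pairs of the 8 genes over 18 libraries, from log2(FPKM + 0.5) after subtraction of group means, written in each cell. Values are above 0 for 27 of 28 pairs; the block of Mrc1, Stab1, Pf4 and F13a1 holds many of the highest, and Cbr2 and Lyve1 many of the lowest.

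Among all 13574 genes that passed the filter over 18 libraries, those most like Mrc1 after group means were removed were Gid8 (r = 0.89), Cd209a, a C-type lectin of dendritic cells and macrophages (0.86), and Tbx18, a transcription factor of mural cells and meningeal fibroblasts (0.85). F13a1 was closest to Oat (0.92), Lxn and Mxra7 (both 0.89), and Pf4 to Yrdc (0.91), Ier3 (0.88) and Necap2 (0.87). Folr2 was near Nudt6 (0.90) and Wnk4 (0.88), Cbr2 nearest Med11, Cotl1 (both 0.88) and Cryzl1 (0.87), Stab1 nearest Mfsd14a (0.87), Rnf139 (0.86) and Mylk (0.85), and Lyve1 nearest Pcnp (0.89), Pdcd10 (0.87) and Nudt16 (0.86). None of these nearest genes was another of the 8. They are the highest of many values and are given as a description.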

How the data were processed

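The authors deposited FPKM; per the submitters' processing notes fastp, HISAT2, HTSeq and the build GRCm39 were used, with no version stated. Neither the annotation nor strand handling is stated, so reads of genes that overlap, or of an antisense partner, cannot be separated. Groups and replicate numbers came from sample titles. Whole reads were recovered from the deposited FPKM for 18682 of 18683 genes (99.995%, tolerance 0.01 read). Tests kept genes reaching 0.5 FPKM in 3 or more of the fitted libraries (13055 in PFC, 13305 in HPC, 13574 over both), and log2(FPKM + 0.5) was fitted in limma 3.58.1 (R 4.3.3; lmFit, eBayes with trend), with 9 libraries per tissue or all 18 for contrasts across tissues. Tests were two-sided, Benjamini-Hochberg adjusted, and called under 0.05; the fit was tested on simulated data. Counting intervals cover counting error only.

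The 8 genes and all lists were chosen with earlier results of these data known. From each list up to 3 called genes with the largest change were named, and for each of the 8 genes the 3 others with the highest within-group r; some genes that these rules name are not reported here. Alternatives were other pseudocounts and filters, median rescaling, a replicate block, fewer groups, each library left out, and, chosen after seeing the data, each library left out with no filter, and voom on recovered reads (called genes in the EV against PBS comparison of HPC: 0). Library medians ranged over 0.15 on the log2 scale in PFC and 0.07 in HPC. Deviations of same-numbered libraries correlated above 0.1 in every pair only for 5xFAD PBS against wildtype in PFC (correlations 0.17 to 0.51). For HPC against PFC in 5xFAD PBS the correlations were 0.38, 0.50 and 0.01. These come from the values, not the labels. Proteins, and a promoter of Lyve1, were not used here.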

Additional observations from a re-analysis of the deposited data

How the results depend on the processing

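The number of the 8 genes called changed for 3 comparisons. For 5xFAD PBS against wildtype in HPC (0 called) it was 1 with a pseudocount of 1, and 0 to 1 with 1 library left out, being 1 if wildtype replicate 2 or 5xFAD PBS replicate 3 was dropped. For HPC against PFC in 5xFAD PBS (1 called) it was 2 with a pseudocount of 1, 0 with a minimum of 1 FPKM, which Folr2 did not pass and so was not tested, 2 with only the groups compared, and 1 to 2 with 1 library left out, being 2 without 5xFAD PBS HPC replicate 3. For HPC against PFC in 5xFAD EV (0 called) it was 1 with voom on the recovered reads, and 0 to 1 with 1 library left out, being 1 without EV PFC replicate 1 or EV HPC replicate 3. With the replicate block, 3 genes were called for HPC against PFC in 5xFAD PBS (Mrc1, Folr2 and F13a1) and 1, Mrc1, in 5xFAD EV. The labels do not pair samples across the tissues. Deviations of same-numbered HPC and PFC libraries correlated at 0.38, 0.50 and 0.01 in 5xFAD PBS. In 5xFAD EV the correlations were -0.24, 0.09 and -0.21. The block changed no other call of the 8. For 5xFAD PBS against wildtype in PFC, 218 genes were called in all with it, beside 256 without it. Apart from the settings whose construction shows it, the cause of these changes was not tested.

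Calls over all genes moved with fewer libraries. With 1 library left out, they ranged from 141 to 218 for 5xFAD PBS against wildtype in PFC (256 with all; 141 to 157 without any one of wildtype replicates 1 and 3 or the 5xFAD PBS replicates), 320 to 446 in HPC (611 with all; 320 without wildtype replicate 2, and over 1.5 times fewer for each library except 5xFAD PBS replicate 3), 89 to 227 for EV against wildtype in PFC (198 with all; 89, 128 and 105 with wildtype replicate 1, wildtype replicate 3 or EV replicate 1 left out), 159 to 277 in HPC (280 with all; 159 without wildtype replicate 2, and over 1.5 times fewer for each of the 3 wildtype libraries), and 2144 to 3325 for HPC against PFC in 5xFAD PBS (3410 with all; 2144 without HPC replicate 2). For EV against PBS they were 0 to 1 in HPC (1 without PBS replicate 3) and 0 to 1 in PFC (1 without PBS replicate 1). With only the groups compared, 120 were called for EV against wildtype in PFC and 1282 for HPC against PFC in 5xFAD EV (2297 with all groups). Without a filter 1 gene was called for the difference in vesicle effect between tissues.

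Differences near 0 changed sign. Mrc1 for 5xFAD PBS against wildtype in PFC was -0.0041, and 0.0035 with voom and 0.0037 with voom and no filter. With 1 library left out, 5xFAD PBS against wildtype in PFC ran from -0.084 to 0.074 for Mrc1, -0.031 to 0.30 for Cbr2, -0.043 to 0.16 for F13a1 and -0.13 to 0.25 for Stab1. EV against PBS in PFC ran from -0.028 to 0.26 for F13a1 and -0.034 to 0.34 for Stab1, and EV against wildtype in PFC from -0.070 to 0.14 for Pf4. EV against wildtype in HPC ran from -0.49 to 0.13 for Cbr2, -0.13 to 0.17 for Folr2, -0.12 to 0.28 for Mrc1, -0.45 to 0.27 for Pf4 and -0.22 to 0.088 for Stab1. HPC against PFC in wildtype ran from -0.50 to 0.12 for Cbr2, -0.13 to 0.080 for F13a1, -0.25 to 0.059 for Folr2, -0.11 to 0.054 for Lyve1, -0.49 to 0.23 for Pf4 and -0.18 to 0.13 for Stab1, in 5xFAD PBS from -0.039 to 0.30 for Lyve1, and in 5xFAD EV from -0.29 to 0.039 for Cbr2 and -0.14 to 0.070 for Lyve1. The difference in genotype effect between tissues ran from -0.025 to 0.32 for Lyve1. In the 2 hippocampal comparisons with 5xFAD PBS no tested gene of the 8 changed sign under any of these settings.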
